A study of Homo sapiens with 16 samples.

Results

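The transcriptomes of A431 and HaCaT cells were compared after both lines had received siRNA against YAP1 (siYAP). The comparison was taken from the sample labels: 3 A431 libraries and 3 HaCaT libraries carry the siYAP label, which makes 6 of the 16 libraries of the series. The other libraries of each line come from 1 culture with control siRNA (siCTRL), 1 with an empty vector and 3 with YAP5SA, an activated mutant of YAP, and they served here only to show where the line difference with siYAP departed from that in another condition. A431 is a line from an epidermoid carcinoma known for its amplified EGFR gene, and HaCaT is a spontaneously immortalised line of skin keratinocytes. Both lines were grown in serum-containing DMEM, the siRNA was transfected 2 times with 24 h in between, and RNA was taken 48 h after the second transfection. The same siRNA pool went into both lines, so the comparison shows how they differ while YAP1 is knocked down in each. Each line is a single established line, so the 3 libraries of a group, described by the study as biological triplicates, measure the spread between cultures and not between donors.

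YAP and its paralogue TAZ are co-activators that enter the nucleus when the Hippo kinases are inactive and switch on genes through TEAD factors. In stratified epithelium they are active in basal cells that rest on the basement membrane, and lose that activity as cells differentiate towards the cornified layer. Squamous carcinoma cells and immortalised keratinocytes share the basal programme of TP63, KRT5 and KRT14 but can differ in the later differentiation programme, in growth factor signalling and in the cell cycle.

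Totals in the siYAP libraries were between 19423531 and 46791673 assigned read pairs. Levels are given in CPM, the count of assigned pairs relative to the scaled library size, with replicates 1, 2 and 3 in this order, and differences as the log2 fold change of A431 over HaCaT ± its standard error, so that a positive value is higher in A431. CPM is not corrected for gene length, so levels were compared between libraries and not between genes. A gene was called at a false discovery rate (FDR) under 0.05 and an average log2 CPM (logCPM) above 1.

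EGFR, which checks the line labels, stood at 1357, 1085 and 1336 CPM in A431 and 412, 557 and 510.2 CPM in HaCaT. All A431 libraries lay above all HaCaT libraries, and the log2 fold change was 1.35 ± 0.13 with an FDR of 8.2e-07. YAP1, the siRNA target, stood at 5.34, 6.99 and 5.04 CPM in A431 and 23.2, 21.6 and 21.8 CPM in HaCaT. With siCTRL it stood at 94.2 CPM in A431 and 254 CPM in HaCaT, so every siYAP library lay below the control of its line. YAP1 was also lower in A431 than in HaCaT with siYAP, by a log2 fold change of -1.94 ± 0.38 (FDR 5.5e-04). WWTR1, which encodes TAZ, stood at 155, 154 and 160.1 CPM in A431 and 108, 114 and 126 CPM in HaCaT. It was higher in A431 without overlap (0.43 ± 0.11, FDR 0.0036).

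All 10 keratinocyte markers were detected in both lines, with summed levels of 3890 to 4460 CPM in A431 and 3590 to 4410 CPM in HaCaT. Among markers of other cell types, 3 of 10 fibroblast, 3 of 8 melanocyte, 3 of 8 endothelial, 3 of 10 leukocyte and 6 of 10 glandular markers passed the filter on low counts. The markers with no count in any of the 6 libraries numbered 1 for fibroblasts (COL1A2), 1 for melanocytes (TYR), 1 for endothelium (KDR), 2 for leukocytes, MS4A1 among them, and 1 for glandular epithelium (CDX2). The summed levels of the fibroblast markers were 12 to 14.9 CPM in A431 and 21.6 to 28 CPM in HaCaT, and those of the endothelial markers 18.4 to 22.1 CPM and 16.3 to 20 CPM. The melanocyte markers summed to 48.3 to 50.2 CPM in A431 and 104 to 118 CPM in HaCaT, most of it from MITF, a transcription factor of melanocytes and other cells, at 43.2, 45.7 and 43.6 CPM in A431 and 100.4, 116 and 107 CPM in HaCaT. The leukocyte markers summed to 119 to 124 CPM in A431 and 13 to 18 CPM in HaCaT, most of it from CD68, a lysosomal protein gene of macrophages and other cells, at 118, 112 and 112 CPM in A431 and 12.5, 8.16 and 9.32 CPM in HaCaT. The glandular markers summed to 1010 to 1030 CPM and 1390 to 1410 CPM. The part of these in the results was not tested.

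Across 14673 tested genes, 8590 were called between the lines with siYAP, which is 58.5% of them. In A431 4647 genes were higher (31.7%), and in HaCaT 3943 were higher (26.9%). A log2 fold change of at least 1 in either direction was reached by 4355 called genes (29.7%), and the CPM of the lines did not overlap for 11143 genes (75.9%). The median log2 fold change over all tested genes was 0.025. Counts of called members in a gene list are to be read against these percentages and that median, since the lists were given no test of their own. In bulk RNA, fewer cells that express a gene and less RNA per cell cannot be told apart.

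The largest differences separated genes that were well detected in one line and close to undetected in the other. TGM2, a tissue transglutaminase, stood at 99.4, 113 and 106 CPM in A431 and 0.116, 0.146 and 0.165 CPM in HaCaT. It led the genes higher in A431 with more than 3 counts in some HaCaT library, at 719-fold in the fitted model (9.49 ± 0.56, FDR 1.1e-08). TRPS1, a GATA-type transcription factor, stood at 64, 52.8 and 59 CPM in A431 and 0.155, 0.291 and 0.0330 CPM in HaCaT. Under the same limit on counts, the 10 largest also held TMEM47, RASGEF1A, CLDN11, DZIP1, IFI27 and LPAR3, with log2 fold changes between 8.61 and 9.34. None of these genes overlapped between the lines, which the rule that named them required.

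Towards HaCaT the largest differences among genes with more than 3 counts in some A431 library took in genes of secretory and simple epithelia. SCGB1A1, a secretoglobin of airway epithelium, stood at 0.126, 0.103 and 0.150 CPM in A431 and 273, 195 and 229.7 CPM in HaCaT. KRT19, a keratin of simple epithelia, stood at 0.546, 0.965 and 0.798 CPM in A431 and 374, 353 and 369 CPM in HaCaT. AGR2, a protein disulphide isomerase of secretory cells, stood at 1.07, 1.10 and 0.549 CPM in A431 and 354, 469 and 319 CPM in HaCaT. All 3 were close to absent from A431, and their log2 fold changes were -10.82, -8.94 and -8.63. The glandular markers as a list went in both directions. Of 6 tested, 2 were higher in A431, 2 in HaCaT (KRT19 and KRT7) and 2 were not called, with a median of 0.33. CCND2, which encodes cyclin D2, stood at 0.147, 0.0345 and 0.0499 CPM in A431 and 105, 112 and 128 CPM in HaCaT. SPARC, a matrix glycoprotein, stood at 0.126, 0.0345 and 0.349 CPM in A431 and 88, 112 and 91.8 CPM in HaCaT. FLG, the filaggrin of the cornified layer, stood at 0.210, 0.551 and 0 CPM in A431 and 167, 184 and 221 CPM in HaCaT. LUZP2, HMCN1, HECW2 and MTUS2 completed the 10 largest under this limit, with log2 fold changes between -10.45 and -9.27. The rule again took only genes without overlap between the lines.

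Some genes were detected in a single line. Of 26229 listed genes, 461 (1.76%) had more than 3 counts in every A431 library and 3 or fewer in every HaCaT library, and 410 (1.56%) had the reverse. MAGEA4, a cancer-testis antigen of a family of close paralogues, was at 345, 370.01 and 318 CPM in A431 and had no count in HaCaT. It was at least 2865-fold higher in A431 when 3 counts per HaCaT library are taken as the limit, which covers counting error only. The other genes named by their CPM were LINC01296, FUCA2, C15orf48, ZNF518B and TMEM156. They lay between 55.4 CPM, for C15orf48 in replicate 3, and 111 CPM, for LINC01296 in replicate 1, and at 0.146 CPM or less in HaCaT. Of 40 cancer-testis antigens 4 were tested, with 2 higher in each line.

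Among the genes of HaCaT alone, DSG4, a desmosomal cadherin of hair and upper epidermis, was at 412, 394 and 415 CPM with no count in A431. It was at least 3862-fold higher in HaCaT. CDKN2B, which encodes the CDK4 and CDK6 inhibitor p15, was at 191, 145 and 185 CPM with no count in A431, at least 1649-fold higher. SEMA6D, a semaphorin, was at least 1856-fold higher, and GALNT5, a mucin-type glycosyltransferase, at least 792-fold. SPG20 and SLC6A2, the noradrenaline transporter, were at least 584 and 566-fold higher. The pattern was not limited to the siRNA arm, since CDKN2B had no count in any A431 library of the series. MAGEA4 likewise stayed at 0.307 CPM or less in every HaCaT library.

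**Figure D1:**
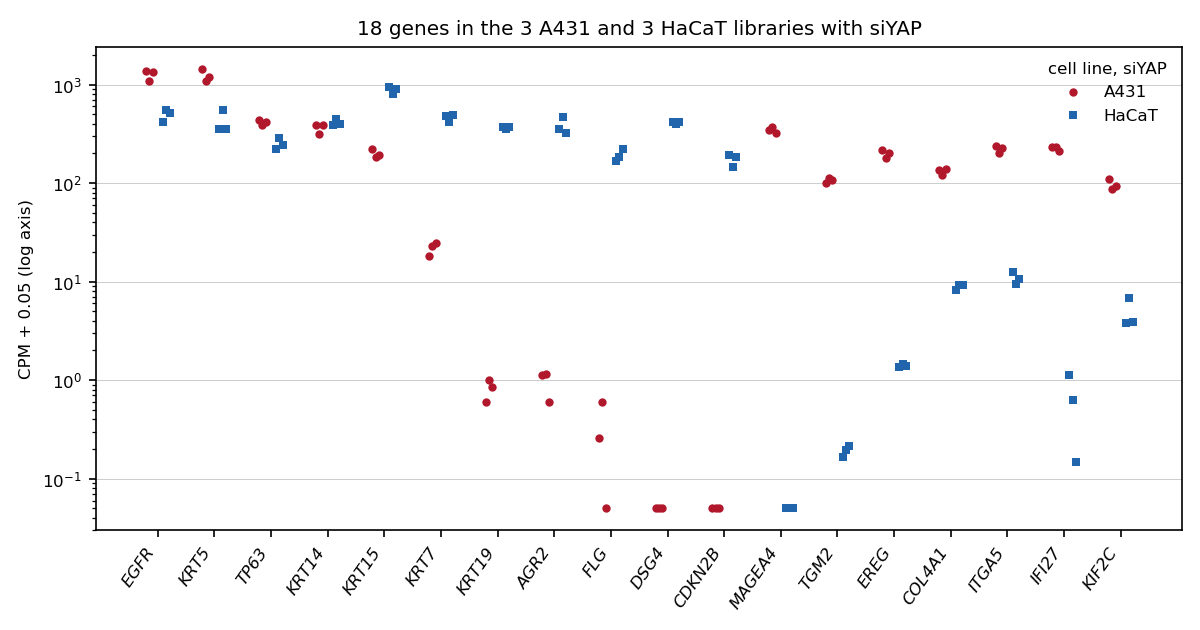
Levels of 18 genes in the 6 siYAP libraries, as CPM plus 0.05 on a log axis, with 1 point per library (red circles A431, blue squares HaCaT). KRT14 overlaps between the lines, KRT5 and TP63 are moderately higher in A431, and MAGEA4, DSG4 and CDKN2B have no count in the 3 libraries of the lower line.

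The basal keratinocyte programme was detected in both lines, and its members moved in both directions. KRT5 stood at 1439, 1078 and 1193 CPM in A431 and 355, 549 and 357 CPM in HaCaT. TP63, the master factor of stratified epithelium, stood at 440.4, 385 and 421 CPM in A431 and 221, 283 and 245 CPM in HaCaT. Both were higher in A431, by 1.56 ± 0.27 (FDR 2.1e-04) and 0.73 ± 0.15 (FDR 8.5e-04). KRT14, the partner of KRT5 in basal filaments, stood at 389, 317 and 389.6 CPM in A431 and 386, 445 and 402 CPM in HaCaT. Its libraries overlapped, and the difference of -0.17 ± 0.22 was not called (FDR 0.5). COL17A1, ITGA6 and LAMB3, parts of the hemidesmosome and its laminin, were not called either, at -0.37 ± 0.18, 0.04 ± 0.13 and 0.12 ± 0.15, although COL17A1 was called in a fit of the 6 libraries alone. SFN, the 14-3-3 sigma protein, was higher in A431 (1.09 ± 0.12). The desmosomal genes DSG3 (-1.63 ± 0.20) and PKP1 (-1.07 ± 0.17) and the integrin gene ITGB4 (-0.80 ± 0.16) were higher in HaCaT. Of the 10 markers 3 were thus called higher in A431 and 3 in HaCaT, with a median of -0.065.

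The keratins split in the same way, with 10 of 23 tested members higher in A431, 7 in HaCaT and a median of -0.172. KRT7, a simple epithelial keratin, stood at 18.1, 23.1 and 24.8 CPM in A431 and 481, 412 and 487 CPM in HaCaT. KRT15, a basal and hair follicle keratin, stood at 219.9, 185 and 192 CPM in A431 and 937, 806 and 902 CPM in HaCaT. Both were higher in HaCaT without overlap, by log2 fold changes of -4.39 ± 0.18 and -2.15 ± 0.30. The stress keratin KRT16 stood at 25, 34.4 and 32.4 CPM in A431 and 1.70, 0.923 and 1.19 CPM in HaCaT. KRT6B, another stress keratin, stood at 37.8, 33.2 and 33.5 CPM in A431 and 0, 0.0971 and 0 CPM in HaCaT. The hair keratin KRT81 stood at 19.4, 20.7 and 22.8 CPM in A431 and 0.0387, 0.0971 and 0.793 CPM in HaCaT. These 3 were higher in A431 without overlap. KRT6B and KRT81 have close paralogues, among which the assignment of reads is less certain.

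Cornified envelope and suprabasal genes were more often lower in A431. Of 34 tested members 6 were higher in A431, 12 in HaCaT and 16 were not called, with a median of -1.457. Beside FLG, SPINK5, a protease inhibitor of the upper epidermis, stood at 0.273, 0.241 and 0.150 CPM in A431 and 56.1, 55.8 and 51.3 CPM in HaCaT. HRNR, a filaggrin-like protein, stood at 0.252, 0.310 and 0.0998 CPM in A431 and 31.4, 25.1 and 43 CPM in HaCaT. IVL, which encodes involucrin and was picked after its values were seen, stood at 5.0, 5.10 and 4.89 CPM in A431 and 505, 505 and 526 CPM in HaCaT. A431 libraries were low for all 3 genes and did not overlap with HaCaT. The direction was not shared by every member. CALML5, a calmodulin-like protein of differentiating epidermis, stood at 9.56, 14 and 17.4 CPM in A431 and 0, 0.0486 and 0 CPM in HaCaT. KLK6, a kallikrein protease, stood at 27.1, 21.2 and 20.3 CPM in A431 and 5.07, 4.76 and 4.56 CPM in HaCaT. CALML3, another calmodulin-like gene, was also higher in A431 (8.01 ± 0.43), while SLPI, a secreted protease inhibitor, overlapped between the lines (-0.17 ± 0.21).

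Transcription factors of the epidermal lineage were called in both directions, 15 of 46 higher in A431 and 22 in HaCaT, with a median of -0.424. KLF4, a factor of the suprabasal layers, stood at 124, 124 and 113 CPM in A431 and 6.08, 5.0 and 7.76 CPM in HaCaT. It was higher in A431 by 4.25 ± 0.23, opposite to the median of the cornified envelope genes. The homeobox gene MSX2 (-6.45 ± 0.54), the zinc finger gene OVOL2 (-4.30 ± 0.30) and ID4, an inhibitor of helix-loop-helix factors (-4.25 ± 0.29), were higher in HaCaT. BNC1, a basal zinc finger factor, overlapped between the lines (-0.08 ± 0.09). Among HOX genes, which hold positional identity, 2 of 28 were higher in A431 and 9 in HaCaT, with a median of -0.725. HOXC10 stood at 0.567, 0.310 and 1.05 CPM in A431 and 22.7, 25.1 and 26.5 CPM in HaCaT. HOXA13 stood at 3.63, 4.62 and 4.09 CPM in A431 and 0.0774, 0.389 and 0.165 CPM in HaCaT, in the opposite direction. HOXA10 overlapped between the lines (0.04 ± 0.10).

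Mucosal surface genes were also split, with 6 of 14 higher in A431, 5 in HaCaT and a median of 0.617. CEACAM5, the carcinoembryonic antigen, stood at 0.567, 0.586 and 0.699 CPM in A431 and 63.8, 56.3 and 67.8 CPM in HaCaT. Its relative CEACAM6 stood at 3.47, 3.48 and 2.84 CPM in A431 and 101, 94.8 and 87 CPM in HaCaT. Both were higher in HaCaT without overlap, whereas the membrane mucins differed in direction. MUC4 stood at 215, 85 and 262 CPM in A431 and 50.7, 34.7 and 66.9 CPM in HaCaT. MUC16 stood at 98.2, 39.5 and 95.5 CPM in A431 and 234, 164 and 369 CPM in HaCaT. Both varied between replicates, with replicate 2 the lowest of each line, and were called at 1.88 ± 0.37 (FDR 5.2e-04) and -1.72 ± 0.36 (FDR 8.6e-04).

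The EGF family holds the ligands of EGFR and the related receptors, and 4 of its 13 tested genes were higher in A431 and 4 in HaCaT, with a median of 0.126. EREG, the ligand epiregulin, stood at 215, 178 and 202 CPM in A431 and 1.32, 1.41 and 1.35 CPM in HaCaT. It was 146-fold higher in A431 in the fitted model (7.19 ± 0.27, FDR 3.5e-10). AREG, the ligand amphiregulin, stood at 34.2, 28.5 and 31.9 CPM in A431 and 2.13, 3.98 and 1.52 CPM in HaCaT. NRG1, a ligand of ERBB3 and ERBB4, stood at 44, 44 and 50.8 CPM in A431 and 8.36, 13.6 and 9.68 CPM in HaCaT. These 3 ligands were higher in A431 without overlap. The ligand gene NRG4 (-2.40 ± 0.16) and the receptor genes ERBB2 (-0.66 ± 0.09) and ERBB3 (-0.64 ± 0.14) were higher in HaCaT. TGFA and HBEGF, further ligands of EGFR made by keratinocytes, were not called, at 0.13 ± 0.13 and 0.62 ± 0.29, although HBEGF was called in a fit of the 6 libraries alone. Of 20 other growth factor receptors 10 were higher in A431 and 6 in HaCaT, with a median of 0.344. FGFR4, a fibroblast growth factor receptor, was higher in A431 (6.16 ± 0.72). INSR, the insulin receptor, stood at 1.34, 1.48 and 2.15 CPM in A431 and 53, 44.1 and 57.5 CPM in HaCaT and was higher in HaCaT. Of 15 Eph receptors and ephrins 2 were higher in A431 and 5 in HaCaT, with a median of -0.239.

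Genes that neighbour EGFR on its chromosome were listed as well, and 6 of 11 tested were higher in A431 and none in HaCaT, with a median of 1.14. The nearest of them were not called, with SEC61G at -0.07 ± 0.15, LANCL2 at -0.20 ± 0.30 and VOPP1 at 0.18 ± 0.08. GBAS, a mitochondrial protein gene farther along, stood at 420.2, 357 and 345 CPM in A431 and 87.1, 86.7 and 85.2 CPM in HaCaT. CCT6A, a chaperonin subunit, stood at 945, 1007 and 942 CPM in A431 and 263, 271 and 246 CPM in HaCaT. Neither overlapped between the lines, and A431 was higher. Of the 8 tested genes before EGFR in chromosomal order, SEC61G among them and read after their values were seen, 1 was higher in A431, 3 in HaCaT and 4 were not called. COBL, an actin-nucleating protein gene, was at 20.1, 21.3 and 23.3 CPM in HaCaT and had 3 counts or fewer in all A431 libraries, at least 205-fold higher in HaCaT. ABCA13, a transporter, and FIGNL1, a DNA repair factor, were also higher in HaCaT (-4.90 ± 0.49 and -1.99 ± 0.16). GRB10, an adaptor of receptor tyrosine kinases, was higher in A431 (3.85 ± 0.23).

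The cell cycle inhibitor CDKN2A, which encodes p16 and p14ARF, stood at 0.147, 0.138 and 0.0998 CPM in A431 and 12.3, 16.4 and 14.7 CPM in HaCaT. It lies beside CDKN2B, which had no count in A431. MTAP, the neighbour on the other side and picked after its values were seen, stood at 227, 229 and 223 CPM in A431 and 64.8, 65.3 and 60.8 CPM in HaCaT. A431 was thus low for the inhibitor genes and high for the adjoining metabolic gene (1.83 ± 0.10).

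Hippo pathway genes, which control YAP, were more often lower in A431, with 8 of 30 higher in A431, 16 in HaCaT and a median of -0.361. AMOT, an angiomotin that binds YAP, was at 14.4, 17.4 and 17.9 CPM in HaCaT with no count in A431, at least 157-fold higher in HaCaT. AMOTL1, its relative, stood at 165, 138 and 161 CPM in A431 and 453, 486 and 508 CPM in HaCaT. The kinase gene STK3 (1.19 ± 0.10) and TEAD4, a DNA-binding partner of YAP (1.28 ± 0.16), were higher in A431. Of 21 classical YAP target genes 7 were higher in A431 and 11 in HaCaT, with a median of -0.449. CYR61, a matricellular protein, stood at 47.4, 42.9 and 49.8 CPM in A431 and 3.37, 5.97 and 3.83 CPM in HaCaT. TGFB2, a TGF-beta ligand, stood at 86.9, 67.2 and 77.7 CPM in A431 and 4.80, 7.19 and 6.18 CPM in HaCaT. Both were higher in A431 without overlap. CTGF, a matricellular protein related to CYR61, was near the limit of detection at 0, 0 and 0.299 CPM in A431 and 0.813, 0.486 and 0.826 CPM in HaCaT. It was higher in HaCaT (-3.35 ± 0.82) but under the logCPM limit in a fit of the 6 libraries alone. Also higher in HaCaT were the LIM protein gene AJUBA (-2.15 ± 0.17) and the RhoGAP gene DLC1 (-3.20 ± 0.14).

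Interferon-stimulated genes, which respond to interferon through STAT and IRF factors, were mostly higher in A431. Of 50 tested members 41 were higher in A431 and 3 in HaCaT, with a median of 1.765 against 0.025 over all genes, and 31 were at least 2-fold higher in A431 (16.7% of all genes were). The promoters of the 3 members with the largest difference, and of SAMD9, which was higher in HaCaT, are shown for the letters they share. The core to which interferon regulatory factors bind, GAAA and again GAAA with any 2 bases between them, was searched on both strands from 250 bases before to 50 after the start site in RefSeq (GRCh38.p14), and is in capitals. The stretches lie upstream of the start at chr14:94110621-94110670 (plus strand), chr19:17405731-17405780 (minus), chr1:78620264-78620313 (plus) and chr7:93118086-93118135 (minus), in the order shown.
IFI27: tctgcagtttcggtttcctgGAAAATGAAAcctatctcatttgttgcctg
BST2: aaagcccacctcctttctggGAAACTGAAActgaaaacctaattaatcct
IFI44L: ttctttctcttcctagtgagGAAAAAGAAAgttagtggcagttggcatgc
SAMD9: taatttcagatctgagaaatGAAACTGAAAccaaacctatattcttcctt

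These letters occurred in 24 of 40 interferon-stimulated promoters with a sequence, against 2.94% of the 11272 promoters of tested genes and 3.65% of all 27305 in the table. They occurred in 3.68% of the promoters of genes called higher in A431 and in 2.01% of those called higher in HaCaT. Both shares include called members of the interferon list, most of them higher in A431, so they are not separate from the 24 of 40. A match describes the letters and is not a site. IFI27, a mitochondrial interferon-induced protein, stood at 232, 233 and 209 CPM in A431 and 1.08, 0.583 and 0.0991 CPM in HaCaT. BST2, or tetherin, which retains budding viruses, stood at 131, 142 and 149 CPM in A431 and 0.464, 0.631 and 0.529 CPM in HaCaT. IFI44L stood at 91.5, 112 and 85.7 CPM in A431 and 0.735, 0.729 and 0.363 CPM in HaCaT. The A431 libraries lay far above the HaCaT libraries in each, by log2 fold changes of 8.62 ± 0.37, 8.03 ± 0.38 and 7.34 ± 0.24. SAMD9, an antiviral factor, stood at 296, 323 and 264 CPM in A431 and 938, 841 and 886 CPM in HaCaT, in the opposite direction despite the same letters (-1.59 ± 0.10). The other members higher in HaCaT were its paralogue SAMD9L (-1.09 ± 0.18) and IFITM2 (-2.38 ± 0.28), which has close paralogues. SP100, a nuclear body protein, overlapped between the lines (-0.01 ± 0.12).

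Antigen presentation genes were higher in A431 in 18 of 24 and in HaCaT in none, with a median of 1.077. HLA-C, a class I heavy chain, stood at 314, 334 and 318 CPM in A431 and 66.8, 63.2 and 65.3 CPM in HaCaT. HLA-F, a non-classical class I chain, stood at 60.4, 84 and 82 CPM in A431 and 13.7, 11.9 and 14.5 CPM in HaCaT. CD74, the invariant chain of class II, stood at 6.99, 8.34 and 7.68 CPM in A431 and 0.155, 0.243 and 0.496 CPM in HaCaT. The lines did not overlap for any of them, at 2.31 ± 0.11, 2.49 ± 0.31 and 4.62 ± 0.49, although reads are split less certainly among the HLA paralogues. HLA-DQB1, a class II chain under the logCPM limit of 1 and so not called, and picked after its values were seen, went the other way, at 0, 0.103 and 0 CPM in A431 and 2.83, 2.96 and 2.74 CPM in HaCaT, without overlap and at least 27-fold higher in HaCaT. Of 39 chemokines and cytokines 18 were higher in A431 and 11 in HaCaT, with a median of 1.446. CXCL11, an interferon-induced chemokine, stood at 54.9, 52.5 and 39 CPM in A431 and 0, 0.146 and 0 CPM in HaCaT. CXCL10, of the same group, was at 9.16, 6.0 and 5.14 CPM in A431 with no count in HaCaT, at least 56.2-fold higher. CSF2, or GM-CSF, was at 8.30, 7.58 and 13.1 CPM in A431 with no count in HaCaT, at least 80.2-fold higher. CXCL6, a neutrophil chemokine, was higher in HaCaT (-5.20 ± 0.59).

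Mitosis genes were higher in A431 in 49 of 52 tested members and in HaCaT in none, with a median of 2.109, and 45 were at least 2-fold higher. KIF2C, a kinesin that depolymerises microtubules at the kinetochore, stood at 109, 86.9 and 93.9 CPM in A431 and 3.79, 6.70 and 3.87 CPM in HaCaT. NUF2, of the outer kinetochore, stood at 63.6, 47.7 and 53 CPM in A431 and 2.71, 6.70 and 2.41 CPM in HaCaT. MAD2L1, of the spindle checkpoint, stood at 69.6, 73.6 and 71.7 CPM in A431 and 4.53, 7.82 and 5.48 CPM in HaCaT. HaCaT replicate 2 was the highest HaCaT library for all 3 and still lay below every A431 library. Their log2 fold changes were 4.35 ± 0.21, 3.84 ± 0.29 and 3.60 ± 0.16. SMC2, a condensin subunit, overlapped between the lines (-0.08 ± 0.15).

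DNA replication genes were higher in A431 in 34 of 46 and in HaCaT in 3, with a median of 0.983. The letters TTTNGCGC, a core to which E2F factors bind, were searched in their promoters in the same window and on both strands. They are shown in capitals, as the reverse complement, for ORC6 (2.77), CDT1 (1.98) and POLA1 (-0.10), which hold the same core and range from higher in A431 to not called. CDT1, a helicase loading factor, and POLA1, the primase-bound polymerase, were picked after their values were seen. The stretches lie upstream of the start on the plus strand of GRCh38.p14 at chr16:46689516-46689563, chr16:88803556-88803603 and chrX:24693761-24693808.
ORC6: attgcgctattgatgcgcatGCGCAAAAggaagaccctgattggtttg
CDT1: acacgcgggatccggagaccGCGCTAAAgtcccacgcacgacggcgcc
POLA1: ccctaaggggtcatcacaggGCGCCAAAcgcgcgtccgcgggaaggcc

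This core occurred in 13 of 39 replication promoters with a sequence (33.3%) and in 2 of 45 mitosis promoters (4.44%), against 3.05% of the promoters of tested genes and 1.83% of all in the table. CDC45, part of the replicative helicase, stood at 6.45, 12.3 and 7.88 CPM in A431 and 0.503, 0.971 and 0.958 CPM in HaCaT. ORC6, of the origin recognition complex, stood at 24.1, 33 and 29.4 CPM in A431 and 5.07, 4.03 and 3.57 CPM in HaCaT. UHRF1, of maintenance DNA methylation, stood at 16, 24.2 and 20.3 CPM in A431 and 2.83, 5.0 and 2.18 CPM in HaCaT. A431 libraries were higher for all 3 without overlap. GINS3, another helicase component, was the member farthest towards HaCaT, at 9.41, 10.8 and 10.9 CPM in A431 and 23.9, 25.7 and 21.1 CPM in HaCaT (-1.19 ± 0.16).

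Regulators of G1 were called in both directions, 14 of 34 higher in A431 and 8 in HaCaT, with a median of 0.221. E2F1, which drives entry into S phase, stood at 5.27, 13.4 and 9.58 CPM in A431 and 1.35, 0.826 and 1.12 CPM in HaCaT. CCNE1, which encodes cyclin E1, stood at 2.67, 4.24 and 2.99 CPM in A431 and 0.271, 0.340 and 0.429 CPM in HaCaT. A431 libraries were the higher ones for both, without overlap. The members farthest towards HaCaT were CDKN2B, CCND2 and CDKN2A, given above. CDKN1B, which encodes p27, overlapped between the lines (0.01 ± 0.09).

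Basement membrane and hemidesmosome genes showed no common direction, with 6 of 25 higher in A431, 8 in HaCaT and a median of -0.001. COL4A1, a collagen IV chain, stood at 137, 121 and 139 CPM in A431 and 8.24, 9.28 and 9.12 CPM in HaCaT. It was 14.9-fold higher in A431 in the fitted model (3.90 ± 0.16, FDR 6.4e-10). LAMA3, a laminin alpha chain, stood at 322, 255 and 297 CPM in A431 and 264, 313 and 298 CPM in HaCaT and overlapped between the lines. FRAS1, a basement membrane protein gene, was at 32.3, 29 and 46.4 CPM in HaCaT and had 3 counts or fewer in all A431 libraries, at least 341-fold higher in HaCaT. Of 18 integrin subunits, 7 were higher in A431 and 3 in HaCaT, with a median of 0.377. ITGA5, the alpha chain of the fibronectin receptor, stood at 239, 204 and 226 CPM in A431 and 12.5, 9.42 and 10.6 CPM in HaCaT. ITGB8, which pairs with the alpha V chain, stood at 122, 115 and 122 CPM in A431 and 445, 497 and 462 CPM in HaCaT. The 2 subunits differed in direction, and neither overlapped.

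Extracellular proteases and their inhibitors held large differences in both directions, with 11 of 30 higher in A431, 8 in HaCaT and a median of 0.719. PLAUR, the urokinase receptor, stood at 49.6, 45.3 and 43.7 CPM in A431 and 4.72, 7.67 and 6.51 CPM in HaCaT. It was higher in A431 without overlap (2.88 ± 0.30). MMP12, the macrophage elastase, stood at 0.630, 0.586 and 0.599 CPM in A431 and 221, 216 and 237 CPM in HaCaT, with no overlap in the other direction. LOXL2, a collagen cross-linking oxidase counted among genes of epithelial to mesenchymal transition, stood at 66.6, 66.2 and 80.9 CPM in A431 and 1.74, 1.07 and 1.65 CPM in HaCaT. Of 23 genes of that transition 8 were higher in A431 and 7 in HaCaT, with a median of -0.193. Cell junction genes were more often higher in HaCaT, 24 of 50 against 11, with a median of -0.473. CDH2, which encodes N-cadherin, was at 2.48, 4.61 and 4.13 CPM in HaCaT with no count in A431, at least 35.5-fold higher in HaCaT, and it too was under the logCPM limit in a fit of the 6 libraries.

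**Figure D2:**
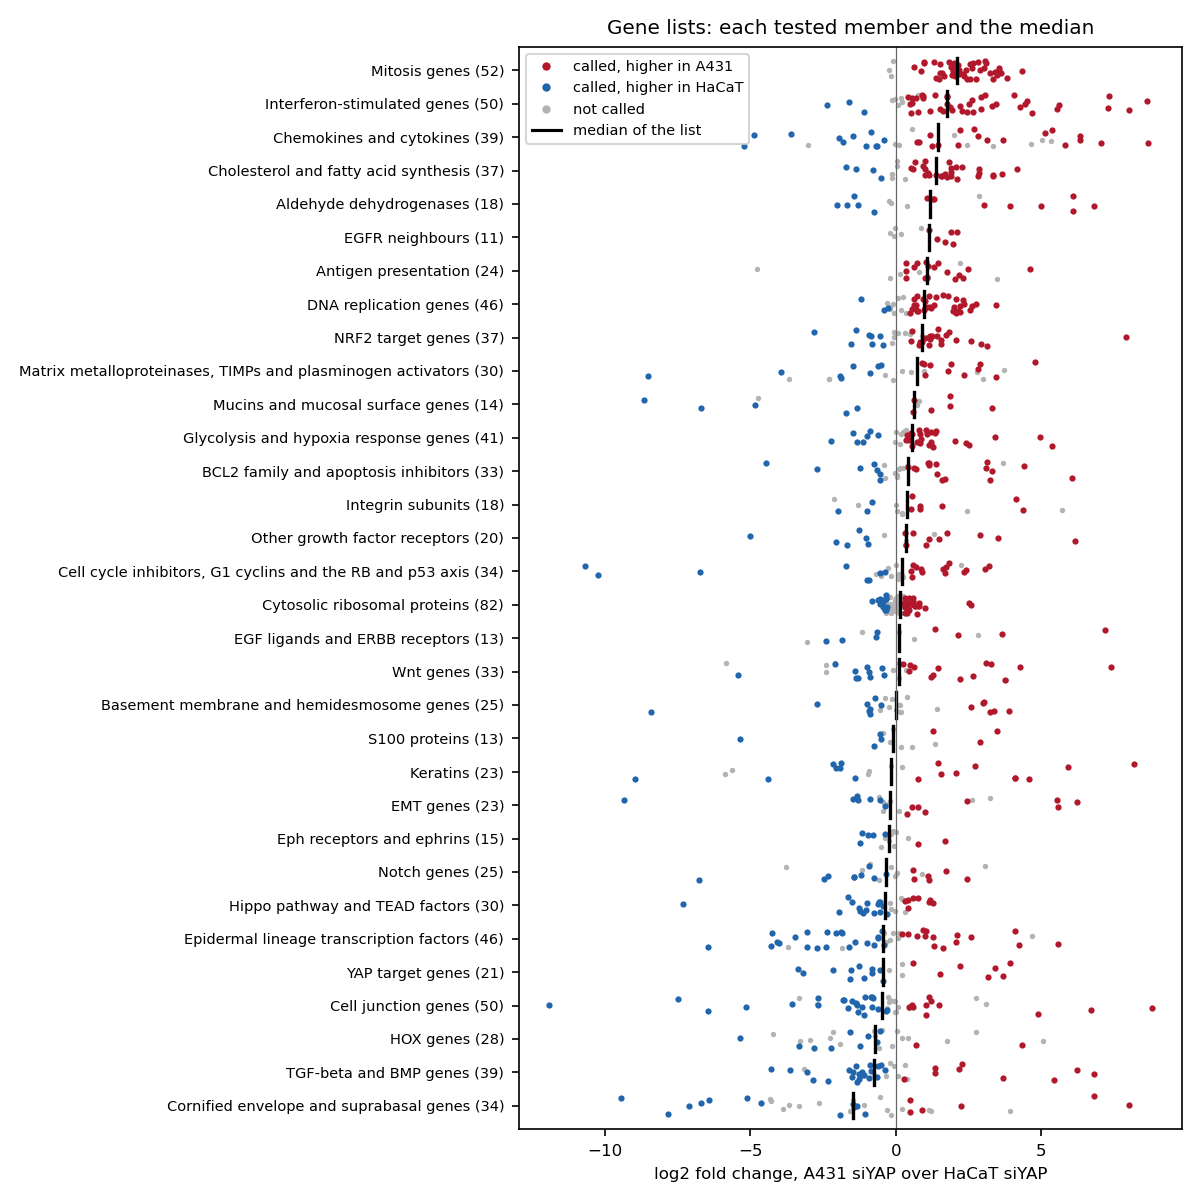
Line difference of every tested member of the gene lists with at least 10 tested members, as the log2 fold change of A431 siYAP over HaCaT siYAP. Lists of cell type markers are not drawn. Each point is a gene, coloured where it was called, and the black bar is the median of the list. Genes with 3 counts or fewer in all libraries of a line are drawn at the fold that 3 counts allow. Mitosis genes (median 2.109) and interferon-stimulated genes (1.765) lie highest and cornified envelope genes (-1.457) lowest.

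The plot of the line difference by list places metabolic genes mostly on the A431 side. Genes of cholesterol and fatty acid synthesis were higher in A431 in 28 of 37 and in HaCaT in 4, with a median of 1.398. MSMO1, a sterol oxidase, stood at 869.8, 739.98 and 825 CPM in A431 and 54.3, 84.6 and 55.7 CPM in HaCaT. SQLE, the squalene epoxidase, stood at 566, 528 and 580.4 CPM in A431 and 52.2, 67.9 and 44.8 CPM in HaCaT. The A431 libraries were higher without overlap (3.65 ± 0.25 and 3.34 ± 0.16), and HaCaT replicate 2 was the highest HaCaT library for both. SCD, the stearoyl-CoA desaturase, stood at 4534, 3720.1 and 3764 CPM in A431 and 3339, 4344 and 4083 CPM in HaCaT and overlapped between the lines (0.03 ± 0.29).

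NRF2 target genes, which handle oxidants and electrophiles, were higher in A431 in 22 of 37 and in HaCaT in 8, with a median of 0.909. GSTM1, a glutathione transferase with close paralogues, was at 29.8, 30.1 and 26.9 CPM in A431 with no count in HaCaT, at least 241-fold higher. FTH1, the ferritin heavy chain, stood at 2229.9, 1693 and 1798 CPM in A431 and 4761, 4880.1 and 5217 CPM in HaCaT. It was higher in HaCaT, as was GPX2, a glutathione peroxidase (-2.80 ± 0.13). Glycolysis and hypoxia genes were higher in A431 in 27 of 41 and in HaCaT in 7, with a median of 0.569. Of 18 aldehyde dehydrogenases, 9 were higher in A431 and 5 in HaCaT, with a median of 1.174. That median ran from 0.0723 to 1.21 over the processing alternatives. ALDH2, which clears acetaldehyde in mitochondria, stood at 74.4, 68.3 and 67.1 CPM in A431 and 1.70, 3.30 and 1.75 CPM in HaCaT. ALDH1A3, which makes retinoic acid, stood at 1046, 947 and 943 CPM in A431 and 2487, 2814 and 2605 CPM in HaCaT. The lines did not overlap for either, and the directions were opposite (4.99 ± 0.21 and -1.43 ± 0.17). Cytosolic ribosomal protein genes were called in 28 of 82 towards A431 and 13 towards HaCaT, with a median of 0.132 and 2 members at least 2-fold apart.

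TGF-beta and BMP genes were more often higher in HaCaT, 22 of 39 against 9, with a median of -0.746. BAMBI, a decoy receptor, stood at 0.336, 0.241 and 0.250 CPM in A431 and 5.30, 4.37 and 6.94 CPM in HaCaT. BMP2, a ligand, stood at 2.31, 2.27 and 2.10 CPM in A431 and 21, 17.3 and 16.8 CPM in HaCaT. HaCaT libraries were the higher ones for both. INHBB, an activin subunit, was at 10.9, 15.3 and 14.8 CPM in A431 with no count in HaCaT, at least 114-fold higher. FST, the activin antagonist, stood at 23.2, 21.3 and 23.9 CPM in A431 and 0.387, 1.17 and 0.165 CPM in HaCaT and was also higher in A431. Notch genes were higher in A431 in 6 of 25 and in HaCaT in 9 (median -0.35), Wnt genes in 14 and 10 of 33 (0.112), S100 genes in 3 and 4 of 13 (-0.089) and apoptosis regulators of the BCL2 family in 16 and 7 of 33 (0.438). BMF, a pro-apoptotic member of that family, stood at 9.16, 7.37 and 8.43 CPM in A431 and 196, 167 and 192 CPM in HaCaT, higher in HaCaT (-4.47 ± 0.45).

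Zinc finger genes were examined after their values were seen, because runs of neighbours stood low in A431. Of 426 tested genes with a ZNF symbol 219 were higher in HaCaT (51.4%) and 53 in A431, with a median of -0.582, and 15 had 3 counts or fewer in every A431 library. The runs from ZNF738 to ZNF254, ZNF14 to ZNF708 and ZNF700 to ZNF709 each hold 11 neighbouring genes, and had medians of -5.075, -4.255 and -3.627. In them 10, 10 and 11 genes were higher in HaCaT. ZNF100 stood at 0.126, 0.103 and 0.0998 CPM in A431 and 14, 12.5 and 16.9 CPM in HaCaT. ZNF429 stood at 0.0630, 0.310 and 0.0499 CPM in A431 and 16.8, 24 and 15.9 CPM in HaCaT. ZNF844 stood at 0.294, 0 and 0.250 CPM in A431 and 5.96, 6.41 and 5.58 CPM in HaCaT. None of these overlapped between the lines. ZNF90 had no count in A431 and stood at 2.59, 3.64 and 2.84 CPM in HaCaT. Zinc finger genes of such runs are close paralogues, so the split of reads among them is uncertain. With YAP5SA the medians of the runs were -4.981, -3.572 and -3.433, and with siCTRL -4.692, -3.999 and -3.066.

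**Figure D3:**
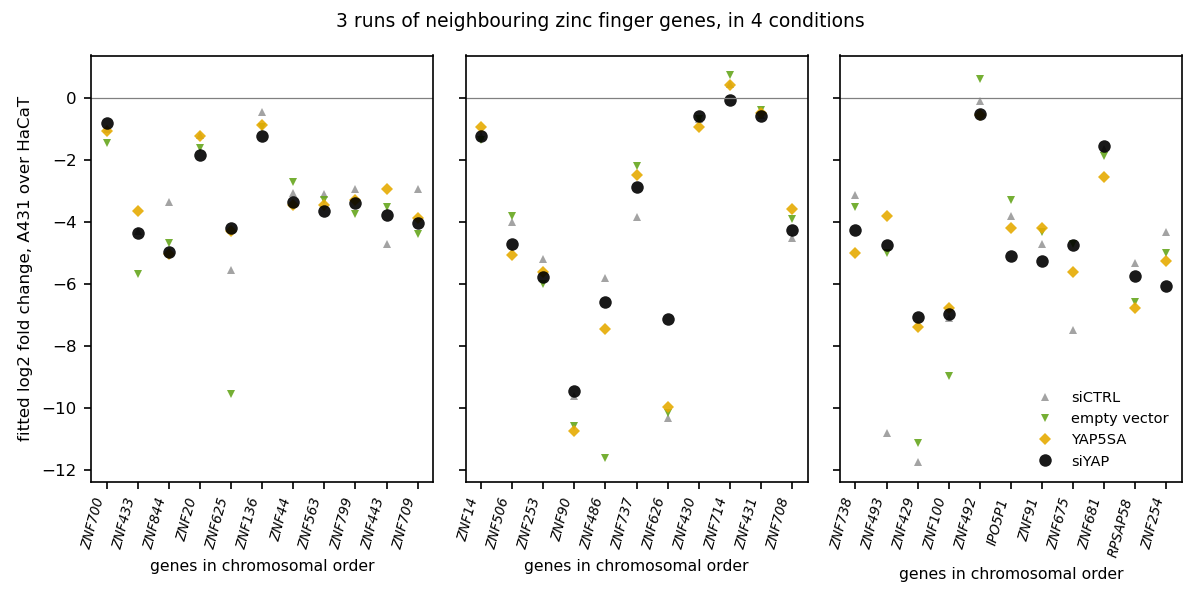
Line difference (log2 fold change of A431 over HaCaT) of the 11 genes of each of 3 runs of neighbouring zinc finger genes, from ZNF700 to ZNF709, ZNF14 to ZNF708 and ZNF738 to ZNF254, in gene order and in each of the 4 conditions. Nearly all points lie below 0 in all conditions, with siYAP medians of -3.627, -4.255 and -5.075. Values of genes near 0 counts depend on the prior count.

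The line difference with siYAP was then set against that with YAP5SA, which comes from other libraries. With YAP5SA 7360 of 14673 genes were called between the lines (50.2%). Across all tested genes, which are not independent of each other, the line differences correlated at a Pearson r of 0.777 and a Spearman rho of 0.579. Of the 8590 genes called with siYAP 4692 were also called in the same direction with YAP5SA (54.6%). The difference between the line differences, tested as an interaction, was called for 5894 genes (40.2%), 3119 positive (21.3%) and 2775 negative (18.9%). Among the 8590 genes called with siYAP the interaction was called for 4742 (55.2%). The contrast changes the delivery (siRNA or expression vector) together with YAP, and within it the parts of each cannot be told apart. For some genes and lists the line differences with siCTRL and with empty vector, each from 1 library per line, are given beside it.

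**Figure D4:**
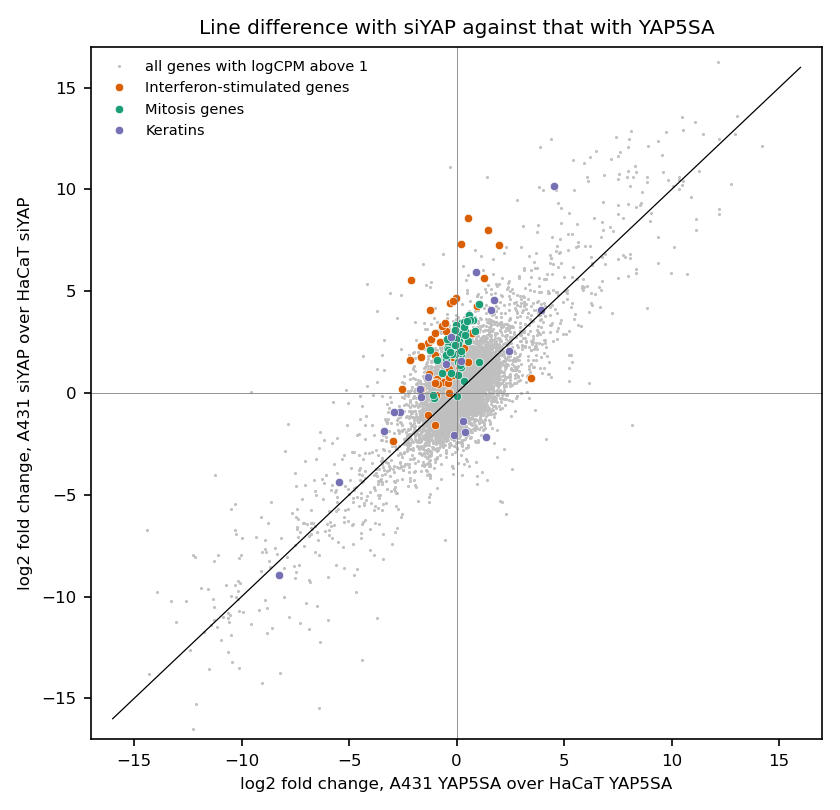
Fitted line difference (log2 fold change of A431 over HaCaT) with siYAP on the vertical axis and with YAP5SA on the horizontal axis for genes with a logCPM above 1. The diagonal marks equal differences. Keratins lie on both sides of it, and most interferon-stimulated and mitosis genes lie above it. The most extreme values come from genes near 0 counts in a line and depend on the prior count.

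Interferon-stimulated, mitosis and DNA replication genes differed between the conditions in most members. For interferon-stimulated genes the median line difference was 1.765 with siYAP, 1.388 with siCTRL, -0.788 with empty vector and -0.536 with YAP5SA, and 43 of 50 members had a called positive interaction. For mitosis genes the medians were 2.109, 1.911, -0.366 and 0.053 in the same order, with 48 of 52 positive. For DNA replication genes they were 0.983, 1.358, -0.533 and -0.274, with 32 of 46 positive. In these lists the control siRNA went with siYAP, and the empty vector with YAP5SA.

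The levels of single genes show which line moved. IFI27 stood at 786, 588 and 583 CPM in A431 and 453, 388 and 493 CPM in HaCaT with YAP5SA and at 576 CPM in A431 and 379 CPM in HaCaT with empty vector. With siCTRL it stood at 185 CPM in A431 and 0.0546 CPM in HaCaT. KIF2C stood at 168, 197 and 202 CPM in A431 and 77.5, 103 and 91.7 CPM in HaCaT with YAP5SA, at 173 CPM in A431 and 109 CPM in HaCaT with empty vector and at 104 CPM in A431 and 10.5 CPM in HaCaT with siCTRL. HaCaT levels of both genes were low in the siRNA libraries, control siRNA included, and high in the vector libraries, while the A431 levels moved by a smaller factor. DCN, a fibroblast marker, stood at 11.6, 11.3 and 14.2 CPM in HaCaT with siYAP and at 11.4 CPM with siCTRL, against 0.0765 CPM or less in its 4 vector libraries. LUM, another fibroblast marker, stood at 12.7, 9.54 and 8.98 CPM in A431 and 6.15, 6.85 and 7.99 CPM in HaCaT with siYAP, and at 2.37, 1.51 and 1.64 CPM in A431 and 0.102, 0 and 0.0255 CPM in HaCaT with YAP5SA. CDH5, an endothelial marker, stood at 15.8, 18.8 and 18.1 CPM in A431 and 12.2, 12.1 and 13.6 CPM in HaCaT with siYAP, and at 1.12, 1.35 and 1.25 CPM in A431 and 0.666, 0.316 and 0.994 CPM in HaCaT with YAP5SA. Levels of both were lower in the YAP5SA libraries of each line than in its siYAP libraries. The empty vector was low as well. LUM stood at 9.69 CPM in A431 and 9.28 CPM in HaCaT with siCTRL, and at 3.58 and 0 CPM with empty vector. CDH5 stood at 31 CPM in A431 and 51.8 CPM in HaCaT with siCTRL, and at 2.43 and 0.127 CPM with empty vector. CD68 was higher with YAP5SA, at 169.7, 163 and 162 CPM in A431 and 32.5, 21.6 and 22.2 CPM in HaCaT. Whether these markers and the other genes moved for a shared reason was not tested.

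**Figure D5:**
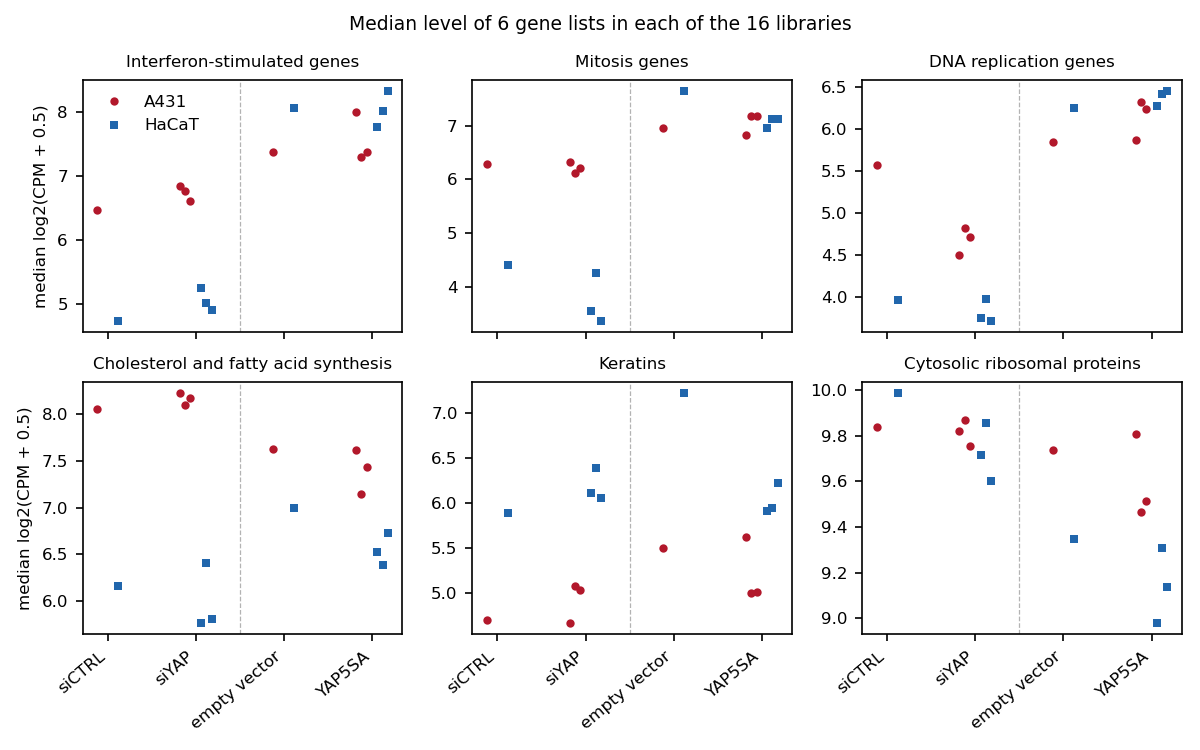
Median log2(CPM + 0.5) over the members of 6 gene lists in each of the 16 libraries (red circles A431, blue squares HaCaT), with siRNA conditions left of the dashed line and vector conditions right of it. HaCaT siRNA libraries lie lowest for interferon-stimulated, mitosis and DNA replication genes, and the lines lie closer together or cross in the vector conditions.

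For other genes the interaction was not called. KRT19 stood at 1.03, 0.939 and 1.14 CPM in A431 and 426, 182 and 351 CPM in HaCaT with YAP5SA (interaction -0.69 ± 0.47). AMOTL1 stood at 133, 124 and 117 CPM in A431 and 420.2, 400.2 and 381 CPM in HaCaT with YAP5SA (interaction 0.04 ± 0.14). Neither overlapped between the lines, and each differed in the same direction as with siYAP, and the EGFR line difference was 1.03 with YAP5SA, with an interaction of 0.32 ± 0.18 (FDR 0.17). KRT15 changed direction, from -2.15 to 1.38, and stood at 539, 456 and 533 CPM in A431 and 322, 104 and 162 CPM in HaCaT with YAP5SA (interaction -3.53 ± 0.41, FDR 2.5e-05). The receptor genes ERBB2 and ERBB3 also changed direction, to 0.89 and 0.83, with interactions of -1.56 ± 0.12 and -1.47 ± 0.20. Their line differences were -0.92 and -0.35 with siCTRL and 1.33 and 0.97 with empty vector, which thus went with YAP5SA. For KRT15 the line difference was -3.19 with siCTRL and -0.61 with empty vector. Each of these controls is 1 library per line.

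Against siCTRL, with 1 control library per line, the line difference with siYAP was called different for 25 genes (0.17%), 7 positive (0.0477%) and 18 negative (0.123%), and 1690 genes had an unadjusted p under 0.05. Leaving out any 1 of the 6 siYAP libraries gave 6 to 13 genes, and DESeq2 called 280. The antiviral gene SAMD9 and the integrin gene ITGB8 were among the 25, at -1.14 and -1.96 on the log2 scale. With a single control culture per line, its spread is taken from the replicated groups.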

How the data were processed

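RNA was sequenced as paired-end reads, and the authors trimmed the reads and assigned them to RefSeq genes with RSEM, of which the submitters' processing notes name version 1.2.11 and the build hg19. The deposited table holds expected counts per gene, which were rounded to whole numbers. Of 26229 listed genes, those with a mean above 10 counts per library over all 16 libraries were kept (14673). They were fitted with edgeR 4.0.16 (TMM scaling, quasi-likelihood test, prior count 0.125) in a model of 8 groups with 8 residual degrees of freedom, with Benjamini-Hochberg adjustment over all tested genes. The coefficient of biological variation was 0.174 and TMM factors were 0.914 to 1.07. In the siYAP libraries 3 counts equal 0.063 to 0.15 CPM, and the limits set at 3 counts cover counting error only. The standard errors were computed from the log2 fold change and the F statistic of the quasi-likelihood test. They take in the estimated spread between cultures. The strand setting of the counting is not given in the sources used here, so reads of antisense partners may be shared.

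Genes were named by a rule: the line checks, the 10 largest called differences in each direction without overlap among genes with more than 3 counts in some siYAP library of each line, the 6 genes with the highest CPM seen in a single line, and from each list the 3 farthest members in each direction and the member nearest to 0. Exceptions are marked in the text, and some genes that the rule names are not reported here. The comparison, the gene lists and the rule were chosen with earlier results of these data known. Symbols turned into dates (28) or repeated (4) were left unnamed. Promoter sequences are from RefSeq (GRCh38.p14), and 97.7% of nameable genes matched by symbol. The procedure was tested on simulated data of 14597 genes, with 100 genes changed at each fold and no line difference in the others. In these data far more genes differed, with 58.5% called between the lines and 40.2% in the interaction with YAP5SA. The FDR limit is stricter where few genes differ, so the shares recovered hold for the simulated setting only. The line comparison recovered 32% of 1.5-fold and 72% of 2-fold changes. The interaction with YAP5SA recovered 5% and 30%, so an interaction that was not called does not show equal line differences. Alternatives used DESeq2 1.42.0, other scalings, filters, calls and tests, a replicate block, and each siYAP or YAP5SA library left out in turn.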

Additional observations from a re-analysis of the deposited data

Results flagged for a closer look

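Of 155 genes given above, 76 had a line difference with siYAP that differed from their line difference with YAP5SA by the interaction test, beside 15 that also differed but had 3 counts or fewer in all libraries of a line, for which the fitted value depends on the prior count and is not given. The share of both together, 58.7%, lay near the 55.2% of all genes called between the lines with siYAP, so the count says little about the genes given. Over all 14673 tested genes the share was 40.2%. The values below are the line difference with siYAP minus that with YAP5SA, on the log2 scale, so that a positive value means a shift towards A431. The delivery changed with the condition, and its part was not tested.

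Among immune genes the value was 8.07 for IFI27, 7.11 for IFI44L, 6.57 for BST2, 1.84 for HLA-F, 1.22 for HLA-C and -0.60 for SAMD9. Of the 76 genes, those of the cell cycle shifted towards A431, by 3.3 for KIF2C, 3.25 for NUF2, 2.86 for MAD2L1, 1.01 for SMC2, 3.1 for CDC45, 3.16 for ORC6, 3.37 for UHRF1, 2.11 for CDT1, 2.24 for E2F1 and 3.96 for CCNE1.

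Those of matrix, adhesion and proteases shifted towards A431 as well, by 5.12 for LOXL2, 4.09 for ITGA5, 3.44 for COL4A1, 3.07 for PLAUR, 2.26 for LAMA3, 1.15 for LAMB3 and 0.87 for ITGA6, with ITGB8 at -0.62 as the exception. YAP pathway and target genes were at 4.95 for CYR61, 4.13 for TGFB2, 3.69 for CTGF, 2.27 for TEAD4, 1.3 for STK3 and -0.73 for AJUBA. In A431, CTGF was near 0 counts with siYAP (0, 0 and 0.299 CPM) and with YAP5SA (0.0430, 0.163 and 0.0834 CPM). Its fitted value therefore depends on the prior count. In HaCaT it stood at 0.813, 0.486 and 0.826 CPM with siYAP and 9.37, 14.9 and 15.1 CPM with YAP5SA. With siCTRL the line difference was 3.18 for CYR61, 2.83 for TGFB2 and -1.57 for AJUBA, and with empty vector 0.21, 1.36 and -1.66.

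EGFR ligands shifted towards A431, by 4.7 for AREG, 4.21 for EREG, 3.03 for NRG1 (a ligand of ERBB3), 1.69 for HBEGF and 0.84 for TGFA. The receptor genes ERBB2 (-1.56), ERBB3 (-1.47) and INSR (-1.43) and the ligand gene NRG4 (-2.43) shifted towards HaCaT, and FGFR4 (3.02) towards A431. Receptors shared no direction, since of 20 other growth factor receptors 7 had a called positive interaction and 6 a called negative one. With siCTRL the line difference was 5.81 for AREG, 8.41 for EREG, 2.16 for NRG1, 1.47 for HBEGF and 0.97 for TGFA. With empty vector it was -0.02, 3.24, -0.44, -0.77 and -0.05 in the same order. Neighbours of EGFR and CDKN2A were at 1.44 for SEC61G, 0.99 for CCT6A, -0.53 for VOPP1 0.70 for MTAP and 3.89 for GRB10.

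Keratins shifted in both directions, with 5.0 for KRT81, 2.8 for KRT16, 1.5 for KRT14, 1.35 for KRT5, 1.06 for KRT7 and -3.53 for KRT15. Other epidermal genes were at 2.75 for KLF4, 1.1 for SFN, 0.60 for BNC1, -0.81 for DSG3, -0.82 for PKP1, -1.49 for ID4, -2.65 for IVL and -2.66 for HRNR. Secretory and mucosal genes shifted towards HaCaT, by -3.98 for AGR2, -3.42 for MUC4 and -2.56 for MUC16.

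Metabolic genes were at 2.53 for MSMO1, 2.09 for SQLE, -1.54 for GPX2, -1.29 for FTH1 and -0.81 for ALDH1A3. Markers of other cell types were at -4.67 for LUM, -0.95 for MITF and 0.81 for CD68. LUM was near 0 counts in HaCaT with YAP5SA (0.102, 0 and 0.0255 CPM), so its value depends in part on the prior count. The remaining genes were TGM2 at 6.69, FST at 6.65, TRPS1 at 2.25, LUZP2 at -3.96, HECW2 at -5.09 and BMF at -5.42. Against siCTRL, SAMD9 differed by -1.14 and ITGB8 by -1.96, each with 1 control library per line.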

How the results depend on the processing

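The line comparison with siYAP called 8072 to 9802 genes under other tools, scalings, filters and fits without the block, against 8590. With a log2 fold change of at least 1 it called 4355 (2448 higher in A431 and 1907 in HaCaT), and the interaction with YAP5SA then fell from 5894 to 3188. Leaving out 1 library gave 7929 to 8196 genes, 4165 to 4486 of them higher in A431 and 3642 to 3841 in HaCaT, and 5169 to 6265 for the interaction. The interaction with siCTRL depended most on the processing, with 280 genes by DESeq2, 13 with RLE scaling, 210 by the likelihood ratio test and 360 in a fit of its own libraries, against 25. Leaving out any 1 of the 6 siYAP libraries gave 6 to 13 genes. The causes were not tested. Of the genes given, COL17A1 was called with upper quartile scaling or in a fit of the 6 libraries, HBEGF without a count filter, by the likelihood ratio test or in that fit, and VOPP1 without a count filter. LUM and CDH5 were called by DESeq2, by the likelihood ratio test or in that fit, and HLA-DQB1 without the logCPM limit, while CTGF, CDH2 and ZNF90 fell under the logCPM limit in that fit. WWTR1, TP63, ITGB4, ERBB2 and ERBB3 were under the log2 limit of 1. No direction of a gene given reversed. Some list medians depended on the processing. They ran from 0.0723 to 1.21 for aldehyde dehydrogenases, -0.514 to 0.633 for mucosal surface genes and -0.0211 to 0.805 for extracellular proteases. The sign also changed for keratins, keratinocyte markers, basement membrane genes and Wnt genes. Medians stayed at 1.91 to 2.52 for mitosis genes, 1.68 to 1.84 for interferon-stimulated genes and -1.6 to -1.11 for cornified envelope genes.

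The main fit did not pair the lines by replicate number. Deviations from the group means of same-numbered libraries correlated at 0.00446, 0.0987 and 0.256. Those of differently numbered libraries correlated at -0.184 to 0.0759, so these values do not settle whether the numbers pair the cultures. With the replicate block 9584 genes were called in the line comparison and 6039 in the interaction with YAP5SA, and no call of a gene given changed beyond those of the 6-library fit. No control pairs could be blocked against siCTRL, with 1 library each. The depth limits genes under 0.15 CPM, the level of 3 counts in the shallowest library.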

Other observations

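Genes were also read in chromosomal order, in 11815 overlapping windows of 11 neighbouring genes with a logCPM above 1, chosen after the values were seen and given no test. The middle 90% of window medians lay between -0.838 and 1.004. The lowest was the window from MRPL9 to PRR9, at -6.677, which holds TCHH, HRNR, FLG, IVL and PRR9 of the epidermal differentiation complex, and 7 of its 11 genes were higher in HaCaT. The same window stood at -4.031 with YAP5SA and -6.671 with siCTRL. Low windows outside the zinc finger runs given above were ZNF347 to CACNG6 (-1.886, 11 of 11 higher in HaCaT) and CWC15 to ARHGAP42 (-1.828, 11 of 11).

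On the A431 side, the window from EPHX2 to EXTL3 had a median of 2.477 with all 11 genes higher in A431, and stood at 2.074 with YAP5SA and 2.151 with siCTRL. The window from POLH to NFKBIE, which holds VEGFA, stood at 2.096 with all 11 genes higher, at 1.156 with YAP5SA and at 1.668 with siCTRL. The window from SESN2 to SNORA16A stood highest, at 2.514, and includes small nucleolar RNA genes. Of its 11 genes 9 were higher in A431, and it stood at 0.774 with YAP5SA and 1.605 with siCTRL. The window from RCOR3 to TMEM206, which holds the cell cycle genes NEK2 and DTL, stood at 2.168 with siYAP, with 7 genes higher in A431 and 3 in HaCaT. It stood at 0.159 with YAP5SA, -0.233 with empty vector and 1.637 with siCTRL.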
